A study of Penaeus vannamei with 11 samples.

Results

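The molting hormone system of the Pacific white shrimp (*Penaeus vannamei*) was followed in hemocytes, the circulating blood cells, through 42 of the 18803 genes in the deposited expression table. A gene was included when its first listed name placed it among nuclear receptors, ecdysone or ecdysteroid genes, FTZ-F1, broad-complex, juvenile hormone or Krueppel homolog 1 genes, with nuclear receptor coactivators and corepressors left out. The rule used names and no measured value, but it was set with earlier results of these data known. The 42 genes were 2 ecdysone receptors, 7 nuclear receptors of the ecdysone response, 1 E74 factor, 15 broad-complex genes, 3 juvenile hormone pathway genes, 7 other nuclear receptors and 7 genes named after a hormone or a receptor. No gene in the selection carried the name retinoid X receptor, methoprene-tolerant or farnesoic acid as its first name.

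The study asked how sex relates to disease resistance, and compared RNA of hemocytes from control animals with that from animals given *Vibrio parahaemolyticus*, a bacterial pathogen of shrimp. The 11 libraries fell into 4 groups, with 3 control females, 3 Vibrio females, 3 Vibrio males and 2 control males, the last numbered 2 and 3. All samples, controls included, carry the treatment word "immune" and were hemolymph cells pelleted from anticoagulant and lysed in Trizol. The labels do not state age, molt stage, the dose, route and time of the bacteria, or whether replicates were separate animals or pools, so p-values measure the spread between these samples.

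Library totals ran from 39733829 to 53837438 counts, and a gene with no count in a library could have had up to 3 counts there, a limit of 0.0557 to 0.0755 CPM that covers counting error only. Hemocyte markers were abundant in every library. The 34 hemocyte marker genes (penaeidins, crustins, transglutaminases, phenoloxidases and a hematopoietic factor), none at 0 in all libraries, made up 3.01 to 6.80% of a library's counts. Hepatopancreas markers took 0.0213 to 0.268%, muscle markers 0.0849 to 0.230% and cuticle markers at most 0.00611%. In such bulk RNA, fewer cells of a type and less RNA per cell cannot be told apart.

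Ecdysteroids are the molting hormones of arthropods. They act by binding the ecdysone receptor (EcR), which pairs with the retinoid X receptor (ultraspiracle in insects) and switches on a cascade that is best known from *Drosophila*: the early genes E74, E75 and broad-complex first, then the receptor HR3, and then FTZ-F1 as the hormone falls. In *Drosophila*, HR3 activates the gene of FTZ-F1 and E75 protein can bind HR3 and block it. Juvenile hormone, whose crustacean counterpart is methyl farnesoate, signals in insects through the zinc finger factor Krueppel homolog 1 (Kr-h1).

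Most of the system was present in hemocytes, and its levels differed widely between genes. FPKM (fragments per kilobase of transcript, scaled to sequencing depth) were used to compare genes, because they are divided by gene length. Of the 42 genes, 35 had enough counts to be tested. The highest were 2 broad-complex genes, LOC113804772 with a mean of 45.0 ± 12.2 FPKM (SD, n = 11 libraries) and LOC113828209 with 43.6 ± 7.82 FPKM. They were followed by Juvenile hormone epoxide hydrolase 1 (LOC113815867), an enzyme that breaks down juvenile hormone in insects, with 27.8 ± 7.56 FPKM. Kr-h1 (LOC113822590) had 22.7 ± 26.5 FPKM, so its spread over libraries was as large as its mean.

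Of the receptors, an E75 gene (LOC113804417) had the highest mean level, 14.8 ± 8.01 FPKM, and the HR38 gene LOC113829011 had 13.9 ± 4.34 FPKM. HR38 belongs to the NR4A family of receptors. HR3 (LOC113814499) had 10.9 ± 17.0 FPKM, FTZ-F1 (LOC113828208) 8.90 ± 13.1 FPKM and HR96 (LOC113804121), a receptor tied to lipids and foreign compounds in *Drosophila*, 7.77 ± 2.59 FPKM. The neighbours in this order lay within each other's spread over libraries. One ecdysone receptor gene, LOC113805277, had 3.91 ± 2.51 FPKM. The other, LOC113801851, had 0.0571 ± 0.0387 FPKM and no count in 1 library. The nearest candidate for the receptor's partner, LOC113809514, lies outside the 42 genes because its first name is retinoic acid receptor RXR-alpha-B-like. It lay between 1.33 and 2.86 FPKM in the 11 libraries.

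The 7 untested genes were close to absent at this depth. E78C-like (LOC113826024), the NR2E1-like gene LOC113824014 and a partial HR38 gene (LOC113827579) had no count in any library. The remaining 4 were both photoreceptor-specific nuclear receptor genes, whose vertebrate namesake acts in the retina, one broad-complex gene (LOC113801243) and an ecdysteroid regulated-like gene (LOC113809492). They reached at most 0.455 FPKM in a library.

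**Figure D1:**
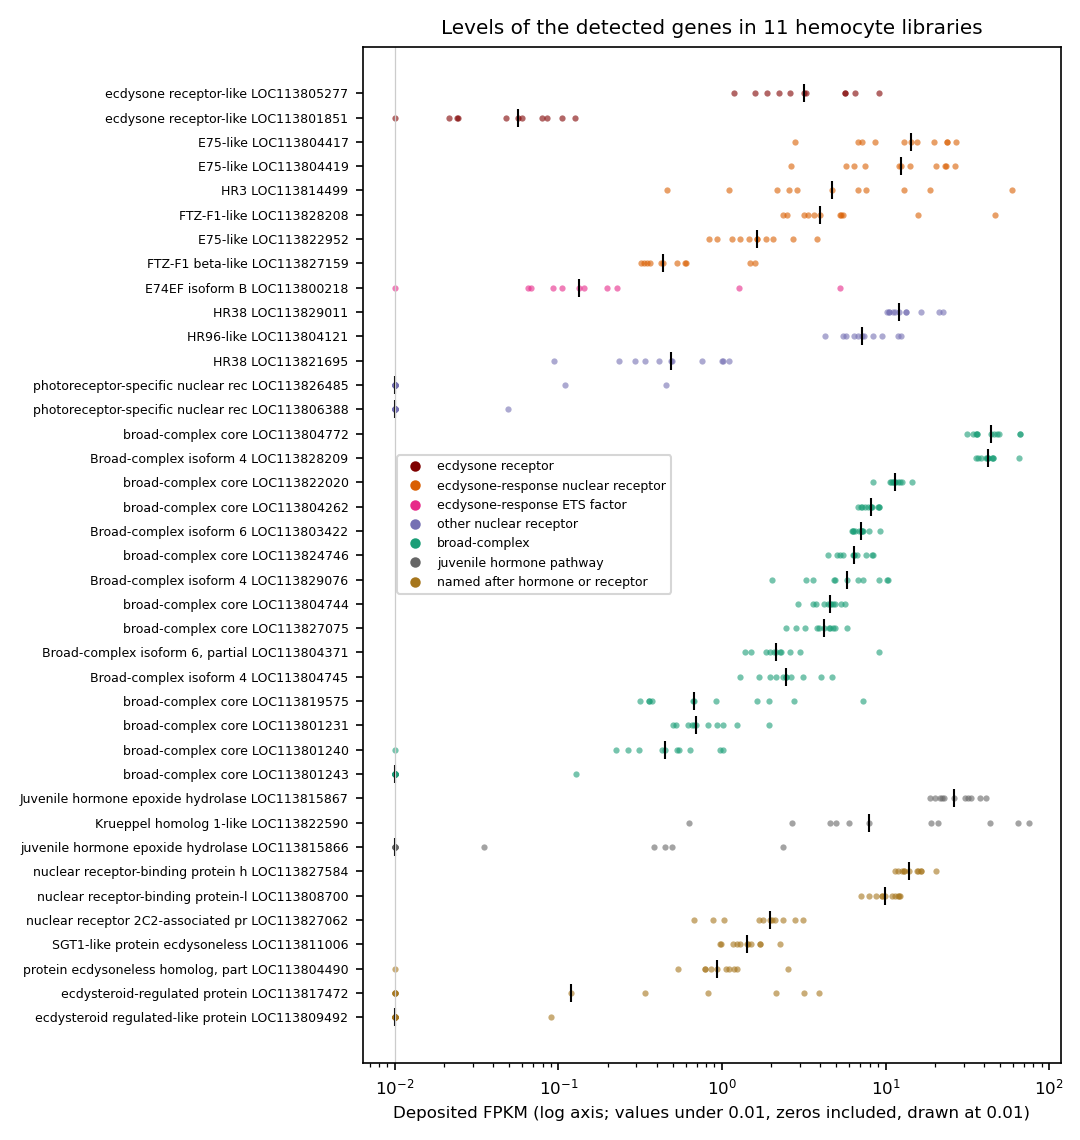
Deposited FPKM (x axis, log scale) of the 39 genes with a count in at least 1 library. Each point is 1 of 11 libraries, the vertical tick is the median and the colour is the class. The broad-complex genes span from under 1 to 66.6 FPKM, mostly with narrow ranges, whereas HR3, FTZ-F1, E74 and Kr-h1 each spread over more than a decade.

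Several of the names rest on weak or shared annotation. The 2 genes E75 LOC113804417 and LOC113804419 lie on the same scaffold and strand with 1 listed gene between them, and their counts stood in a ratio of 0.872 to 1.06 in all 11 libraries. Both are marked low quality in their names. Whether their reads were shared was not tested. The second was described only as a companion of the first, but it counts as a separate gene in all tallies of genes and pairs. The broad-complex gene LOC113824746 lists 17 names, among them longitudinals lacking, abrupt and bric-a-brac, which are other transcription factors with a BTB domain. The broad-complex gene LOC113803422 is also named GDNF-inducible zinc finger protein 1-like. The HR38 gene LOC113821695 is also named nuclear receptor subfamily 4 group A member 2-like. In the deposited annotation, nuclear receptor activity was listed for 11 of the 34 annotated genes and for 19 of 11565 annotated genes in all.

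Spread between libraries of a group was large for several hormone-response genes and smaller for most broad-complex genes. This was measured as the SD of log2 CPM within groups. CPM are counts scaled to a common library depth by TMM, and they were used to follow 1 gene between libraries. Over the 8169 tested genes of at least 5 CPM the median SD was 0.346. HR3 had 2.29, Kr-h1 1.48, E75 LOC113804417 1.15, FTZ-F1 0.98 and EcR LOC113805277 0.89, whereas the E75 gene LOC113822952 had 0.65. The 10 broad-complex genes at this level had a median of 0.27 and ranged from 0.13 to 0.73, so they overlapped with that E75 gene. These genes and classes were singled out after their values were seen, and the spreads are a description.

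HR3 had a 123-fold range between its highest and its lowest library. It stood at 60.6, 11.4 and 39.75 CPM in control females 1, 2 and 3, and at 26.2 and 13.5 CPM in control males 2 and 3. It stood at 2.17, 10.8 and 268 CPM in Vibrio females 1, 2 and 3, and at 30.8, 5.38 and 89.1 CPM in Vibrio males 1, 2 and 3. The highest and the lowest value both came from Vibrio females, so all 4 groups overlapped. The 3 libraries highest in HR3, Vibrio female 3, Vibrio male 3 and control female 1, were also the 3 highest in the summed muscle markers, with 0.219, 0.167 and 0.230% of counts. Of the 68 muscle genes 1, a troponin C-like gene, was at 0 in all libraries. The 11 troponins together reached at most 2.84 FPKM, whereas the titins reached 174 FPKM. The part of these markers in the HR3 values was not tested.

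E75 LOC113804417 had 72.7, 25.0 and 67.7 CPM in control females 1, 2 and 3, and 56.5 and 22.2 CPM in control males 2 and 3. It had 21.0, 46.4 and 70.4 CPM in Vibrio females 1, 2 and 3, and 38.7, 8.95 and 84.1 CPM in Vibrio males 1, 2 and 3. Vibrio male 3 was the highest library and Vibrio male 2 the lowest, and every pair of groups overlapped. The less abundant E75 gene LOC113822952 ranged from 3.42 CPM in control male 2 and 3.42 CPM in Vibrio female 2 to 12.7 CPM in Vibrio female 3.

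EcR LOC113805277 had 44.3, 21.2 and 69.5 CPM in control females 1, 2 and 3, and 18.1 and 17.8 CPM in control males 2 and 3. It had 8.15, 13.6 and 37.3 CPM in Vibrio females 1, 2 and 3, and 21.0, 11.3 and 39.1 CPM in Vibrio males 1, 2 and 3. Both control males lay below all control females, and the other pairs of groups overlapped. The sparse EcR gene LOC113801851 stood between 0 CPM in Vibrio female 2 and 0.46 CPM in control male 2.

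**Figure D2:**
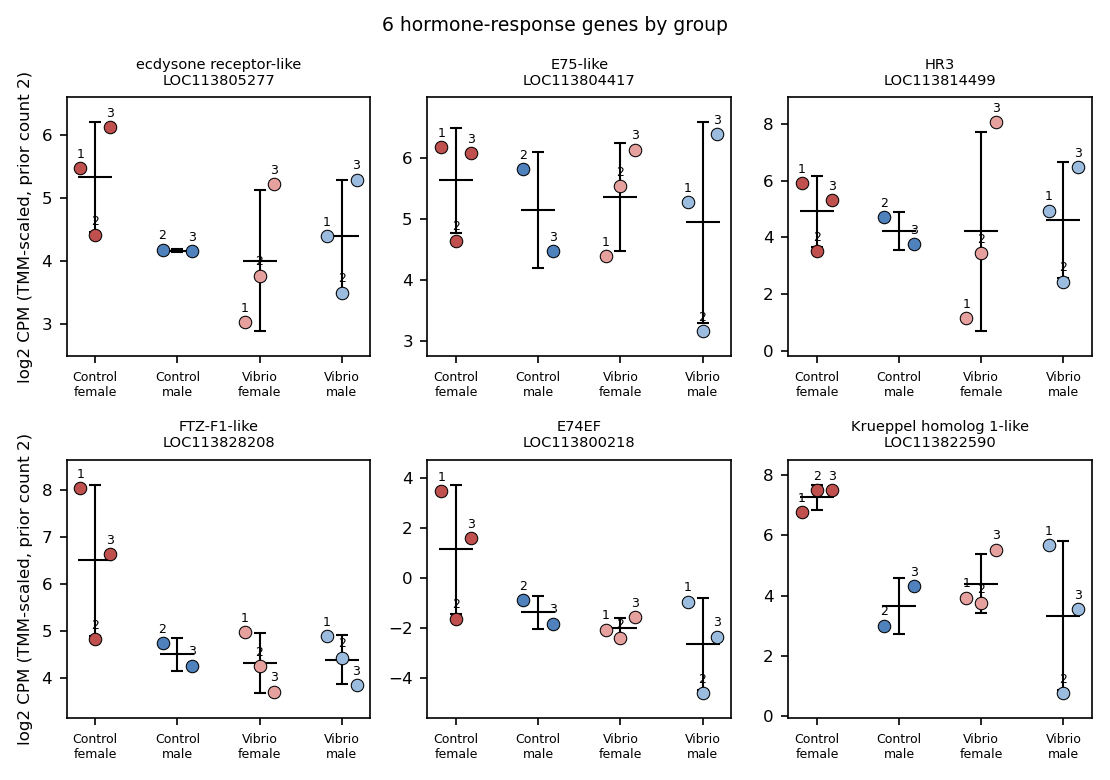
Levels of EcR, E75, HR3, FTZ-F1, E74 and Kr-h1 in each library (log2 CPM with a prior count of 2 on the y axis), with group means and SD as bars. The digit over a point is the replicate number, n = 3 except 2 for control males. Kr-h1 is high in all 3 control females, FTZ-F1 and E74 are high in control females 1 and 3, and HR3 ranges most widely within Vibrio females.

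Several genes of the cascade varied together across libraries. Over the 30 genes of at least 1 CPM, 435 pairs were compared on log2 CPM over 11 libraries, with permutation p-values adjusted over the pairs by Benjamini-Hochberg. By Pearson's r 9 pairs passed an adjusted p of 0.05, by Spearman's rho 8 pairs, and 4 pairs passed both, all 4 positive. The share of passing pairs over all tested genes was not computed, so these counts cannot be read as particular to the hormone system. The 11 libraries share their groups and differ in depth and cell makeup, so r was also computed on deviations from the group means.

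HR3 varied with the broad-complex gene LOC113819575, with r = 0.92 (permutation p = 7e-05, adjusted 0.0087) and rho = 0.96 (permutation p = 1e-05, the smallest that 100000 permutations can give, adjusted 0.00218). Within groups r was 0.94, and without the 2 libraries farthest from the median of LOC113819575 it was 0.85. LOC113819575 stood at 9.77 CPM in Vibrio female 3 and between 0.45 and 3.85 CPM in the other libraries. EcR LOC113805277 varied with FTZ-F1 beta (LOC113827159), with r = 0.87 (permutation p = 4e-05, adjusted 0.0087) and rho = 0.89 (permutation p = 0.00063, adjusted 0.0489). Its r was 0.79 within groups and 0.79 without the 2 libraries farthest from the EcR median. The neighbouring E75 genes had r = 0.997 (permutation p = 1e-05, adjusted 0.00435) and rho = 0.991 (permutation p = 1e-05, adjusted 0.00218). The broad-complex genes LOC113804745 and LOC113824746 had r = 0.91 (permutation p = 8e-05, adjusted 0.0087) and rho = 0.94 (permutation p = 0.00012, adjusted 0.0174). Without the 2 libraries farthest from the median of the first gene of each pair, r was 0.996 and 0.83.

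EcR and HR3 just missed the threshold, with r = 0.82 (permutation p = 0.00184, adjusted 0.0572) and rho = 0.85 (permutation p = 0.00154, adjusted 0.0545). Within groups their r was 0.92. E75 LOC113804417 and HR3 passed by rank, with rho = 0.88 (permutation p = 0.0009, adjusted 0.0489), and not by Pearson's r of 0.80 (permutation p = 0.00299, adjusted 0.065). FTZ-F1 did not follow HR3. Their r was 0.06 (permutation p = 0.864, adjusted 0.903) and their rho was -0.16 (permutation p = 0.634, adjusted 0.81). The libraries Vibrio female 3 and Vibrio male 3, the highest in HR3, were the lowest in FTZ-F1. Control females 1 and 3, the next highest in HR3, were the highest in FTZ-F1, at 264 and 99.2 CPM.

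**Figure D3:**
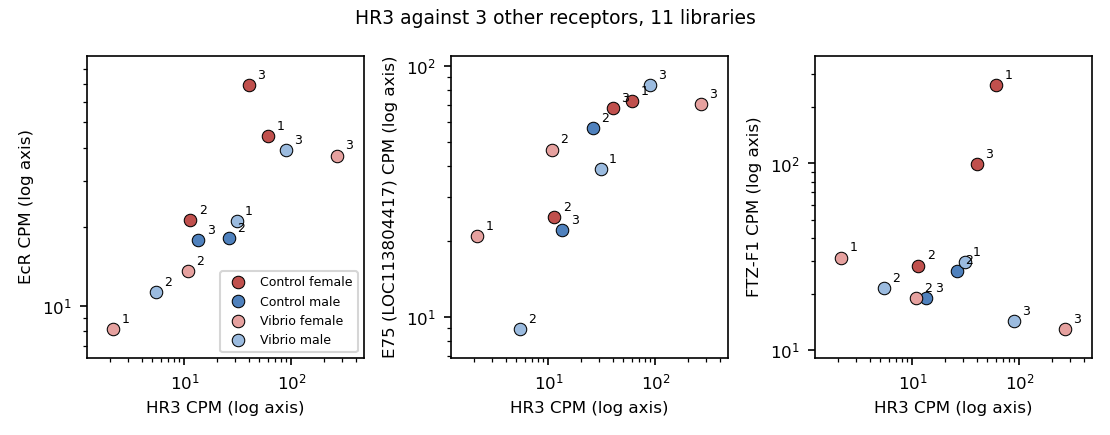
EcR, E75 and FTZ-F1 (y axes) against HR3 (x axes), all in CPM on log axes. Each point is 1 library with its replicate number and is coloured by group. EcR and E75 are high where HR3 is high, whereas FTZ-F1 is at 12.9 and 14.3 CPM in the 2 libraries with the most HR3. FTZ-F1 is highest in control females 1 and 3, which come next in HR3.

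Vibrio and control females were compared first, which addresses the response of female hemocytes. The genes with the smallest p-values were all lower in Vibrio females: FTZ-F1, E74, FTZ-F1 beta and Kr-h1. None passed edgeR's quasi-likelihood test after Benjamini-Hochberg adjustment over 14295 genes, and neither did any other gene (0 of 35 tested genes of the hormone system, against 0% of all genes). DESeq2 called FTZ-F1 alone among the 35, where it called 0.165% of all genes. At an unadjusted edgeR p under 0.05 stood 4 of the 35, against 4.05% of all genes.

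FTZ-F1, a late receptor of the cascade that in *Drosophila* times the response to the next hormone pulse, had 264, 28.3 and 99.2 CPM in control females 1, 2 and 3. It had 31.3, 18.96 and 12.9 CPM in Vibrio females 1, 2 and 3. Control females 1 and 3 stood above every other library of the study, whereas control female 2 lay below Vibrio female 1, so the groups overlapped. The mean was 131 ± 121 CPM (SD, n = 3) in control females and 21.1 ± 9.36 CPM in Vibrio females. The log2 fold change was -2.63 (SE 0.68), with an edgeR adjusted p of 0.986. DESeq2 gave -2.59 (SE 0.62) with an adjusted p of 0.041, and over the alternatives tried the adjusted p ran from 0.041 to 1. Without control female 1 the log2 fold change was -1.60. Hemocyte markers took 5.62 and 6.80% of the counts of control females 1 and 3, the highest shares of the study, and at most 4.72% in the other libraries. Their part in the FTZ-F1 values was not tested.

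E74 (LOC113800218), an ETS-type transcription factor of the early response, had 10.99, 0.28 and 2.97 CPM in control females 1, 2 and 3. It had 0.20, 0.15 and 0.29 CPM in Vibrio females 1, 2 and 3. It was high in the same 2 control females as FTZ-F1, and control female 2 lay just below Vibrio female 3. The log2 fold change was -4.47 (SE 1.44, edgeR adjusted p = 0.986), and -2.93 without control female 1. FTZ-F1 and E74 had r = 0.87 over the 11 libraries (permutation p = 0.00279, adjusted 0.0641) and rho = 0.59 (permutation p = 0.0609, adjusted 0.279). The relation rested on control females 1 and 3, without which r was 0.22.

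FTZ-F1 beta had 10.9, 2.56 and 13.0 CPM in control females 1, 2 and 3 and 2.47, 2.54 and 4.28 CPM in Vibrio females 1, 2 and 3. Again control females 1 and 3 were high and control female 2 lay among the Vibrio females. Its log2 fold change was -1.51 (SE 0.52, edgeR adjusted p = 0.986). EcR LOC113805277 had a log2 fold change of -1.19 (SE 0.62, edgeR adjusted p = 0.986), and HR3 one of 1.33 (SE 1.46, edgeR adjusted p = 0.986). For HR3, Vibrio female 3 lay above and the other 2 Vibrio females lay below all control females.

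Kr-h1 separated the female groups fully. It had 109, 181 and 181 CPM in control females 1, 2 and 3 and 15.2, 13.4 and 46.1 CPM in Vibrio females 1, 2 and 3. The lowest control female stood above the highest Vibrio female, and the means were 157 ± 41.5 and 24.9 ± 18.4 CPM (SD, n = 3 each). The log2 fold change was -2.66 (SE 0.99, edgeR adjusted p = 0.986). In all, 4 of the 35 genes were lower in Vibrio females with no overlap, against 3.9% of all genes, and 0 were higher with no overlap, against 2.48%. The other 3 were the broad-complex genes LOC113804744 and LOC113822020 and the putative nuclear receptor-binding protein-like gene LOC113808700.

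By sign alone, 25 of the 35 genes had a lower fitted level in Vibrio females and 10 a higher one, with a median log2 fold change of -0.26. Over all tested genes 44.9% were lower and the median was 0.05. Among the 14 tested broad-complex genes 10 were lower, with a median of -0.18, and of the 6 ecdysone-response receptors 4 were lower, with a median of -0.31. Without Vibrio female 3 the count at an unadjusted p under 0.05 was 8, and then 11.2% of all genes stood there too. Without the 3 libraries highest in hepatopancreas markers (control male 3, Vibrio female 1 and Vibrio female 3), only Vibrio female 2 was left in its group. The median log2 fold change of the 35 genes was then -0.53, against -0.18 over all genes.

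**Figure D4:**
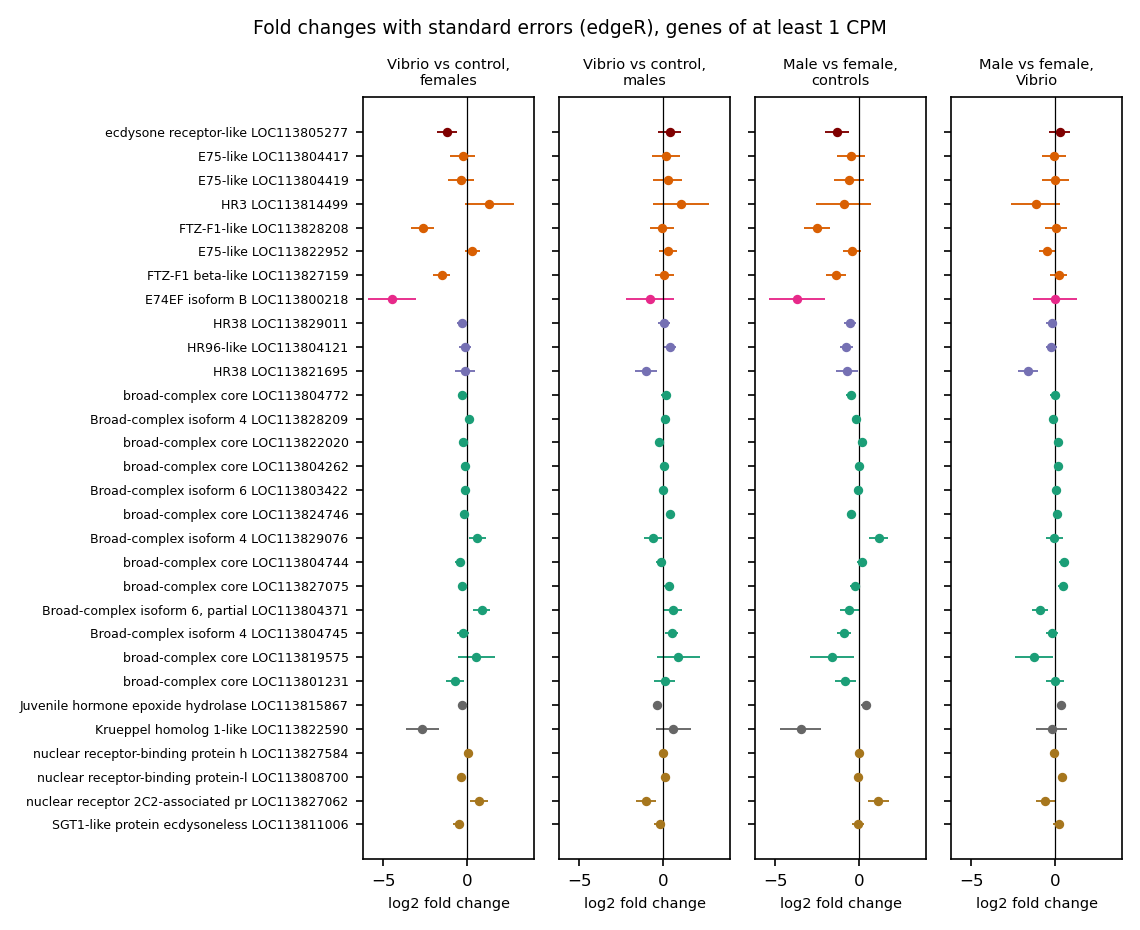
Log2 fold changes (edgeR, with standard errors as bars) of the 30 genes of at least 1 CPM in the 4 comparisons, coloured by class as in the plot of levels. FTZ-F1, FTZ-F1 beta, E74 and Kr-h1 lie well left of 0 in the 2 comparisons that use control females, and no point has an adjusted p under 0.05.

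In males, control and Vibrio libraries overlapped in FTZ-F1, Kr-h1 and E74. FTZ-F1 had 26.7 and 19.02 CPM in control males 2 and 3 and 29.6, 21.4 and 14.3 CPM in Vibrio males 1, 2 and 3. The control values lay inside the Vibrio range, and the log2 fold change was -0.07 (SE 0.72, edgeR adjusted p = 0.994). Kr-h1 had 7.99 and 19.9 CPM in control males 2 and 3 and 51.3, 1.66 and 11.7 CPM in Vibrio males 1, 2 and 3. Its log2 difference was 0.63 (SE 1.07, edgeR adjusted p = 0.945). Its highest and lowest male values were both from Vibrio males. E74 had 0.49 and 0.24 CPM in control males and 0.47, 0 and 0.15 CPM in Vibrio males, with Vibrio male 1 between the control males.

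No hormone-system gene was called in males by edgeR (0% of all genes) or by DESeq2 (0.0867% of all genes), and none had an unadjusted p under 0.05, against 2.41% of all genes. Of the 35 genes, 4 were higher with no overlap, against 13.3% of all genes, and 4 were lower, against 11.5%. Those shares, 11.4% of the 35 genes each way, were close to the ones over all genes. The 3 smallest p-values belonged to LOC113824746, LOC113827062 and the HR38 gene LOC113821695. LOC113824746 had 93.6 and 89.6 CPM in control males and 132, 118 and 120 CPM in Vibrio males. Its fitted log2 difference was 0.43 (SE 0.22, edgeR adjusted p = 0.933). LOC113827062, named after a protein that binds nuclear receptor NR2C2, had 2.32 and 1.48 CPM in control males and 1.04, 1.33 and 0.44 CPM in Vibrio males. Its log2 difference was -1.02 (SE 0.61, edgeR adjusted p = 0.933). By sign, 21 of the 35 genes were higher and 14 lower, with a median of 0.08 against -0.03 over all genes.

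The difference between the Vibrio effects of males and females was tested as an interaction. No gene of the hormone system was called by edgeR (0% of all genes) or DESeq2 (0.191%), and 1 of 35 had an unadjusted p under 0.05, against 5.6% of all genes. That was FTZ-F1, whose male effect minus female effect was 2.56 on the log2 scale (SE 1.00, edgeR adjusted p = 0.74). The value was 1.53 without control female 1. For Kr-h1 the difference was 3.28 (SE 1.48, edgeR adjusted p = 0.74), and it was 1.59 without Vibrio male 1. By sign, 24 of the 35 differences were above 0, with a median of 0.35 against -0.08 over all genes. The female and male effects were thus not shown to differ for any of these genes.

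Males and females were also compared without Vibrio. This comparison shares its 3 control female libraries with the female Vibrio comparison, so the 2 are not independent. Control males were lower in FTZ-F1, with 22.8 ± 5.40 CPM (SD, n = 2) against 131 ± 121 CPM, and both males lay below the lowest female. The log2 fold change of FTZ-F1, males against females, was -2.52 (SE 0.80, edgeR adjusted p = 0.756), and -1.48 without control female 1. Kr-h1 stood at 7.99 and 19.9 CPM in control males against 109 to 181 CPM in control females, a log2 fold change of -3.49 (SE 1.22, edgeR adjusted p = 0.756). FTZ-F1 beta had 3.68 and 3.23 CPM in control males and a log2 fold change of -1.35 (SE 0.60, edgeR adjusted p = 0.756). Those values lay inside the female range of 2.56 to 13.0 CPM.

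Of the 35 genes, 0 were called by edgeR (0% of all genes) and 0 by DESeq2 (0.0828%), and 5 had an unadjusted p under 0.05, against 4.88% of all genes. Besides the 3 above they were E74 and the broad-complex gene LOC113804745. With no overlap, 7 genes were lower in control males, against 11.8% of all genes, and 2 were higher, against 9.54%. EcR LOC113805277 was among the 7, with a log2 fold change of -1.33 (SE 0.72, edgeR adjusted p = 0.756). By sign 28 of the 35 genes were lower in control males, with a median of -0.54, against 51.3% of all genes and a median of -0.02. All 6 tested ecdysone-response receptors were lower by sign, with a median of -0.76, and none passed. The count at an unadjusted edgeR p under 0.05 was 10 without control female 2, when 11.4% of all genes stood there. It was 2 without control female 3, when 2.44% of all genes did.

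After Vibrio the sexes had similar means in FTZ-F1 and Kr-h1, whereas HR3 varied widely in both. FTZ-F1 averaged 21.8 ± 7.64 CPM in Vibrio males and 21.1 ± 9.36 CPM in Vibrio females, a log2 fold change of 0.05 (SE 0.64, edgeR adjusted p = 1). Kr-h1 averaged 21.5 ± 26.2 and 24.9 ± 18.4 CPM, a log2 fold change of -0.21 (SE 0.94, edgeR adjusted p = 1). HR3 averaged 41.8 ± 42.9 CPM in Vibrio males and 93.6 ± 151 CPM in Vibrio females, a log2 fold change of -1.16 (SE 1.45, edgeR adjusted p = 1). These standard errors leave room for a difference in either direction, and the sexes were not shown to be alike.

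No gene of the hormone system was called between the sexes after Vibrio by edgeR (0%) or DESeq2 (0.123% of all genes), and 3 of 35 had an unadjusted p under 0.05, against 3.4% of all genes. The HR38 gene LOC113821695 had 10.2, 5.27 and 7.397 CPM in Vibrio females 1, 2 and 3 and 3.35, 0.99 and 3.03 CPM in Vibrio males 1, 2 and 3. All 3 males lay below all 3 females. Its log2 fold change, males against females, was -1.63 (SE 0.61, edgeR adjusted p = 1). The more abundant HR38 gene LOC113829011 had 76.0, 42.2 and 35.0 CPM in Vibrio females and 46.0, 38.9 and 48.0 CPM in Vibrio males, and the groups overlapped.

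LOC113808700 was higher in Vibrio males, with 51.8, 53.6 and 43.6 CPM against 41.8, 40.4 and 29.6 CPM in Vibrio females, a log2 fold change of 0.41 (SE 0.18, edgeR adjusted p = 1). The sparse juvenile hormone epoxide hydrolase 1-like gene LOC113815866 had 4.43, 0 and 0.80 CPM in Vibrio females and no count in any Vibrio male. Because Vibrio female 2 was at 0 as well, no fold is given for it. Its abundant neighbour LOC113815867, which lies on the same strand with 1 listed gene between, had 51.0 to 67.9 CPM in Vibrio females and 60.5 to 90.1 CPM in Vibrio males. Counts of groups that did not overlap were 2 higher in males, against 4.82% of all genes, and 2 lower, against 2.95%. By sign 14 genes were higher and 21 lower, with a median of -0.04 against -0.09 over all genes, but without Vibrio female 3 the split was 25 higher and 10 lower.

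The broad-complex family, zinc finger factors that specify the pupal stage in insects, held several steady genes. The within-group SD of log2 CPM of LOC113804772 was 0.35, near the median of 0.346 over all genes of at least 5 CPM. Among the sparser tested members it was 0.19 for LOC113804744, 0.57 for LOC113801231, 1.20 for LOC113801240 and 1.55 for LOC113819575. LOC113804772 ranged from 41.3 CPM in Vibrio female 2 to 82.0 CPM in control female 1, and LOC113828209 from 36.3 CPM in control male 3 to 63.3 CPM in Vibrio female 3. For LOC113828209 the log2 fold changes lay between -0.16 and 0.15 in the 4 comparisons of groups. LOC113803422 ranged only from 35.6 to 49.9 CPM and LOC113804262 from 22.0 to 30.3 CPM. Single libraries departed from this. LOC113804371 had 19.9 CPM in Vibrio female 3 and at most 6.64 CPM elsewhere, and LOC113819575 was described above with HR3. LOC113829076 varied over many libraries, from 7.61 CPM in control female 3 and 10.6 CPM in Vibrio female 3 to 35.9 CPM in Vibrio male 2. Both control males, at 29.2 and 35.2 CPM, lay above all control females, which reached at most 19.6 CPM. Its log2 fold change, control males against control females, was 1.17 (SE 0.55, edgeR adjusted p = 0.756).

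**Figure D5:**
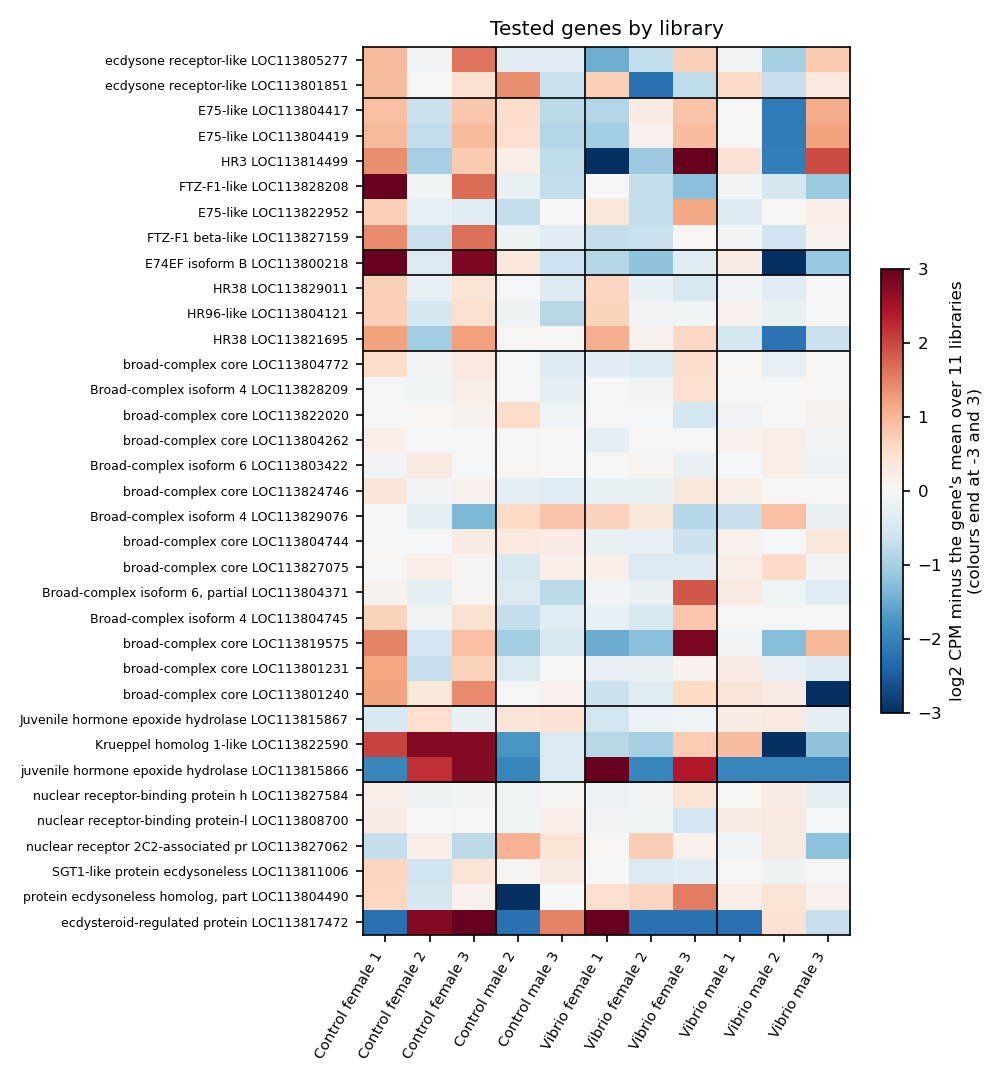
Log2 CPM of the 35 tested genes (rows, grouped by class) in the 11 libraries (columns), each minus the gene's own mean. Red is above and blue is below that mean, and colours end at -3 and 3. Most broad-complex rows are pale, but LOC113819575 is red in Vibrio female 3 and LOC113801240 is blue in Vibrio male 3. Control females 1 and 3 are red in FTZ-F1 and E74, and Vibrio female 3 is the reddest library in HR3.

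Single libraries held many of the extreme values. Control female 1 was the highest library for 8 of the 35 genes, against 12.8% of all tested genes, and Vibrio female 3 also for 8, against 20.2%. For Vibrio female 3 the count was thus close to the share over all genes. The 42 genes together took 0.0951 to 0.140% of the counts in control females and 0.0680 to 0.0703% in control males. Their share was 0.0646 to 0.118% in Vibrio females and 0.0685 to 0.0926% in Vibrio males.

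Among the genes named after a hormone or receptor, the nuclear receptor-binding protein homolog LOC113827584, a pseudokinase in mammals, was steady at 20.6 to 33.2 CPM. Both ecdysoneless genes, named for a *Drosophila* mutant with little ecdysone, were low, LOC113811006 at 3.32 to 8.003 CPM and LOC113804490 at 0 to 1.35 CPM. The ecdysteroid-regulated gene LOC113817472 was at 0 in 5 libraries and reached 2.39 CPM in Vibrio female 1.

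Genes around the cascade were counted from lists made by name. Enzymes and regulators of ecdysteroid synthesis and breakdown were almost silent: of 13 genes 11 were under 0.5 FPKM on average and 5 were tested. The most abundant was adrenodoxin-like protein LOC113810157, an electron carrier for mitochondrial P450 enzymes, with 4.25 ± 1.12 FPKM (SD, n = 11). The mevalonate and farnesyl route, which supplies the precursor of methyl farnesoate, had 7 of 8 genes tested, with farnesyl diphosphate synthase (LOC113820382) at 42.0 ± 5.51 FPKM. Of 62 receptor cofactors and chaperones 59 were tested, and the most abundant was HSP 90-alpha (LOC113806043), a chaperone of steroid receptors, with 163 ± 78.7 FPKM. No gene of these lists was called by edgeR or DESeq2 in any of the 5 comparisons. At an unadjusted edgeR p under 0.05 in the female Vibrio comparison stood 0 of 5, 1 of 7 and 3 of 59 genes of the lists in this order. The partner candidate LOC113809514 had a log2 fold change of -0.40 (SE 0.26, edgeR adjusted p = 0.986) there.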

How the data were processed

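RNA-seq was measured in 11 hemocyte libraries. The deposited table gives whole-number counts, taken as raw counts per gene, and FPKM computed by the authors, per the file headers. Reads were handled with cutadapt 1.9 and FastQC, per the submitters' processing notes. Which aligner, build, counting tool or strand option was used is not given in these sources, so reads of overlapping or antisense genes cannot be told apart. Of the 42 genes, 27 were also in the RefSeq table (another assembly), and names came from the deposited table. No sequences were printed.

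R 4.3.3 and edgeR 4.0.16 were used for the count tests. Of 18803 genes 14295 passed filterByExpr. TMM scaling and a robust quasi-likelihood model with 4 group means over all 11 libraries gave 5 two-sided contrasts. Adjustment was by Benjamini-Hochberg over all tested genes, with calls at an adjusted p under 0.05. All groups shared 1 estimate of spread, because control males had 2 libraries. An SE is the log2 fold change over the square root of its F statistic. The fit was tested on simulated data. DESeq2 1.42.0, other scalings and filters, a replicate block and left-out libraries were alternatives. Within each group no library duplicated another, and pairs between groups were not checked.

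Members and lists were chosen with earlier results of these data known. Lists were corrected by gene name, with 18 genes removed. Named genes were those called by either tool, the 3 with the smallest p in each contrast, the 6 most abundant by FPKM and the ecdysone receptors. HR3, the other E75 genes, LOC113819575 and further genes given with values were chosen after their values were seen.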

Additional observations from a re-analysis of the deposited data

How the results depend on the processing

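The number of hormone-system genes called was 0 in every comparison under all alternatives, except that DESeq2 called 1 in the female Vibrio comparison, FTZ-F1, with a log2 fold change of -2.59. Over all genes, DESeq2 called 25 in the female and 15 in the male Vibrio comparison. It called 27 for their difference, 12 between control sexes and 17 between sexes after Vibrio. Libraries were left out in edgeR only, and the edgeR counts over all 11 libraries were 0 in each of these comparisons. Without the 3 libraries highest in hepatopancreas markers those counts were 3, 1, 2, 1 and 1. Leaving out 1 library at a time gave 0 to 1 in each. Without control female 1 and Vibrio female 3 together, chosen after seeing the data, 1 gene was called in the female Vibrio comparison and 1 between sexes after Vibrio. The cause of these changes was not tested.

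With the replicate number as a block, 0 genes were called in each comparison, and the split of the 35 genes in the male Vibrio comparison turned from 21 higher to 15 higher. Same-numbered libraries gave correlations of -0.57 to 0.50 over 15 pairs, of which 5 were above 0.1. The correlations with the control males were mirror images, such as 0.34 and -0.34 for control female 1. Values of both signs were thus built in for such small groups. The correlations therefore cannot decide whether the numbers pair the samples, which the labels do not state. LOC113815866 gave no value between sexes after Vibrio without the 3 libraries highest in hepatopancreas markers, because both groups were then at 0. The fold changes of the 3 genes with the smallest p in each comparison otherwise kept their sign in all alternatives. Whether the other fold changes given here, such as those of HR3, kept theirs was not examined. FTZ-F1 in the female Vibrio comparison ran from -3.11 to -1.34, the latter without control female 1 and Vibrio female 3. A count of 0 allowed up to 0.0755 CPM at these depths, so the sparsest genes gave no usable fold.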
